A study of Mus musculus with 9 samples.

Results

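A group of 9 markers of mesothelium (Msln, Upk3b, Upk1b, Lrrn4, Wt1, Bnc1, Gpm6a, Nkain4 and Muc16) and Rspo1 were followed through the extrahepatic bile duct (EHBD) of the mouse after obstruction. The 10 genes were named by symbol, and all 10 were found among the 55822 gene IDs of the count table. They were listed with the difference between the surgeries already known, so the values and calls of that comparison are given below as a description and support nothing. The R-spondin, WNT feedback, other mesothelial and uroplakin lists used further below were also chosen with earlier results of these data known. Their calls and p-values are a description too. Whole EHBDs of adult C57BL/6 mice (C57BL/6J in the study's methods) were measured by bulk RNA-Seq 24 hours after sham surgery (n = 4 mice, 2 male and 2 female) or distal bile duct ligation (BDL, n = 5 mice, 2 male and 3 female). The mice were wild type, no drug or transgene was used, and each library came from 1 mouse. In the deposited sheet the animals of Sham 5, Sham 7, BDL 4 and BDL 6, all female, have a name with 1 digit and the other 5 a name with 4 digits, and the sources used here do not say what the form means. The libraries are called by surgery and sample number (Sham 1, 2, 5 and 7; BDL 3, 4, 6, 8 and 10).

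Mesothelium is the single sheet of flat cells that covers the organs and lines the body cavities, the outer face of the bile duct included. Its cells carry keratins and surface glycoproteins and keep the transcription factor WT1 from the embryonic lining of the coelom. R-spondins are secreted proteins that bind LGR receptors and keep the ubiquitin ligases ZNRF3 and RNF43 from removing WNT receptors, so that a cell answers more strongly to WNT ligands. The question was whether Rspo1 followed the mesothelial markers across the libraries.

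The 10 genes lie on 8 chromosomes, and 3 of them (Lrrn4, Wt1 and Nkain4) are on chromosome 2. Rspo1 (ENSMUSG00000028871) spans chr4:124879876-124902892 on the plus strand of GRCm39, and Msln (ENSMUSG00000063011) spans chr17:25967312-25985619 on the minus strand. The promoters of Rspo1, of Msln, which went the other way from the rest, and of Upk3b and Lrrn4, which fell with Rspo1, are shown for comparison. Each is the 300 bases from 250 before to 50 after the start of the gene's canonical transcript in Gencode vM39, read 5′ to 3′ on the gene's strand of GRCm39, at chr4:124879626-124879925 (plus), chr17:25973383-25973682 (minus), chr5:136067100-136067399 (plus) and chr2:132722778-132723077 (minus). Capitals mark GGAATG or its reverse complement CATTCC, the letters bound by TEAD factors, the DNA-binding partners of YAP and TAZ.
Rspo1: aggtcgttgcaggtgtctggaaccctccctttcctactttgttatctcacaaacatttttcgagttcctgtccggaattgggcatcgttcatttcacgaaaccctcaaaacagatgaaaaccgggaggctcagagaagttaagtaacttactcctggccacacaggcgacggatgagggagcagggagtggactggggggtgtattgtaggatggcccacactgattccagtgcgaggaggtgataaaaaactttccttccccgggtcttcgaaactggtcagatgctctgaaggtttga
Msln: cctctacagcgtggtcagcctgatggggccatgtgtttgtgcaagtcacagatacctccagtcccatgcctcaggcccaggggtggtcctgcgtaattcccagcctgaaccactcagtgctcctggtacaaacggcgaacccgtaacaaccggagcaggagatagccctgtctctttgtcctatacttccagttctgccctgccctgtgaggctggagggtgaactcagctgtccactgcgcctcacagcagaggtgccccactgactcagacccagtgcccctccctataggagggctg
Upk3b: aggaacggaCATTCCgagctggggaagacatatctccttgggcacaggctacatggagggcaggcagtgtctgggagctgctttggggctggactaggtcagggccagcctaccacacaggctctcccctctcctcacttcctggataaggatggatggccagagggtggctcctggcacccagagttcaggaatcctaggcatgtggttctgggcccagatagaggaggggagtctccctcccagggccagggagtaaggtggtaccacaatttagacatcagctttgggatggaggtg
Lrrn4: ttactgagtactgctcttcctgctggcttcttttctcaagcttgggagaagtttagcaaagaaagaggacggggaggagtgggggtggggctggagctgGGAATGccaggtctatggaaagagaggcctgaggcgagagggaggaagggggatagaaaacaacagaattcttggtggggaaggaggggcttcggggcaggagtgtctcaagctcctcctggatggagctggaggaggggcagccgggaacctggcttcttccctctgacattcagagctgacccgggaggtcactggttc
The TEAD letters were found on either strand in 4 of the 10 promoters, those of Upk3b, Lrrn4, Upk1b and Nkain4, and in 3044 of 21757 protein-coding promoters of the same length (13.99%). In Upk3b they began 241 bases before the start, and in Upk1b and Nkain4 13 and 6 bases before it. Neither Rspo1 nor Msln held them. The WT1 letters GCGTGGG, searched on both strands and sharing no position with the TEAD letters, were in 0 of the 10 and in 5.81% of all promoters. The letters TATAAA, searched on both strands as well, were in 1, Gpm6a, and in 13.2% of all. These matches describe letters only.

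Each library held between 23067967 and 29991945 estimated counts, and the ranges of the groups overlapped. Levels are normalized counts, the count over a size factor that puts the libraries on one scale. Mki67, a proliferation gene, was between 3.42 and 34.5 normalized counts in sham mice and between 728 and 3418 after BDL, so the libraries followed their labels. The groups also differed in acinar transcripts, and whether these came from neighbouring tissue was not tested. A list of 7 markers of pancreatic acinar cells took 7.14% ± 2.68 (SD, n = 4) of all counts from sham mice and 0.171% ± 0.218 (SD, n = 5) after BDL. A two-sided exact permutation test gave p = 0.00794, which is as low as 126 labelings can go. Size factors ran from 0.434 to 1.17 for sham mice and from 1.22 to 1.63 after BDL. Of the 21299 genes with at least 10 counts in all, edgeR's quasi-likelihood test with sex as a term called 41.4% at an adjusted p under 0.05, 21.4% higher and 19.9% lower after BDL (4565 and 4245 genes). Scaled by library totals alone, 8150 were called higher and 1145 lower, and the median log2 fold change of all genes moved by 0.93, from -0.03 to 0.89.

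Rspo1 was about 20.5-fold lower after BDL. Its normalized counts were 455.4, 382.7, 651.4 and 242.1 in Sham 1, 2, 5 and 7, and 21.9, 2.46, 13.0, 33.7 and 30.2 in BDL 3, 4, 6, 8 and 10. The lowest sham library was above the highest BDL library, and BDL 4 was far under the rest. Group means were 432.9 ± 170.5 (SD, n = 4) and 20.3 ± 12.8 (SD, n = 5). The log2 fold change was -4.36 (SE 0.57). Between 105 and 532 counts lay behind each sham value and between 3 and 55 behind each BDL value. As counts per library total (CPM), with no other scaling, the groups stayed apart too, sham at 4.13 to 20.6 and BDL at 0.128 to 1.83. In a whole duct, fewer cells of a type and less RNA per cell cannot be told apart.

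Of the 10 genes, 8 were called lower, Msln was called higher and Wt1 was not called. Libraries of the groups did not overlap for 9 of them. Among all tested genes 19.9% were called lower, 21.4% higher, and 38.2% did not overlap, 19.0% with every sham library above every BDL library. Since the genes were chosen on this comparison, nothing is read from these counts. All 10 genes passed the filter on low counts. The median log2 fold change of the 9 mesothelial genes was -3.88, beside -0.03 over all tested genes. Every mesothelial gene but Msln kept a negative log2 fold change when scaled by library totals alone, and Rspo1 was then at -3.54. Without Sham 5 the negative log2 fold changes were smaller in size, while Msln was at 3.17. Upk3b was then at -5.27, Upk1b at -2.54, Lrrn4 at -4.33, Bnc1 at -3.66, Gpm6a at -2.64 and Muc16 at -5.60. Rspo1 was at -3.89, Nkain4 at -3.55 and Wt1 at -0.998.

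**Figure D1:**
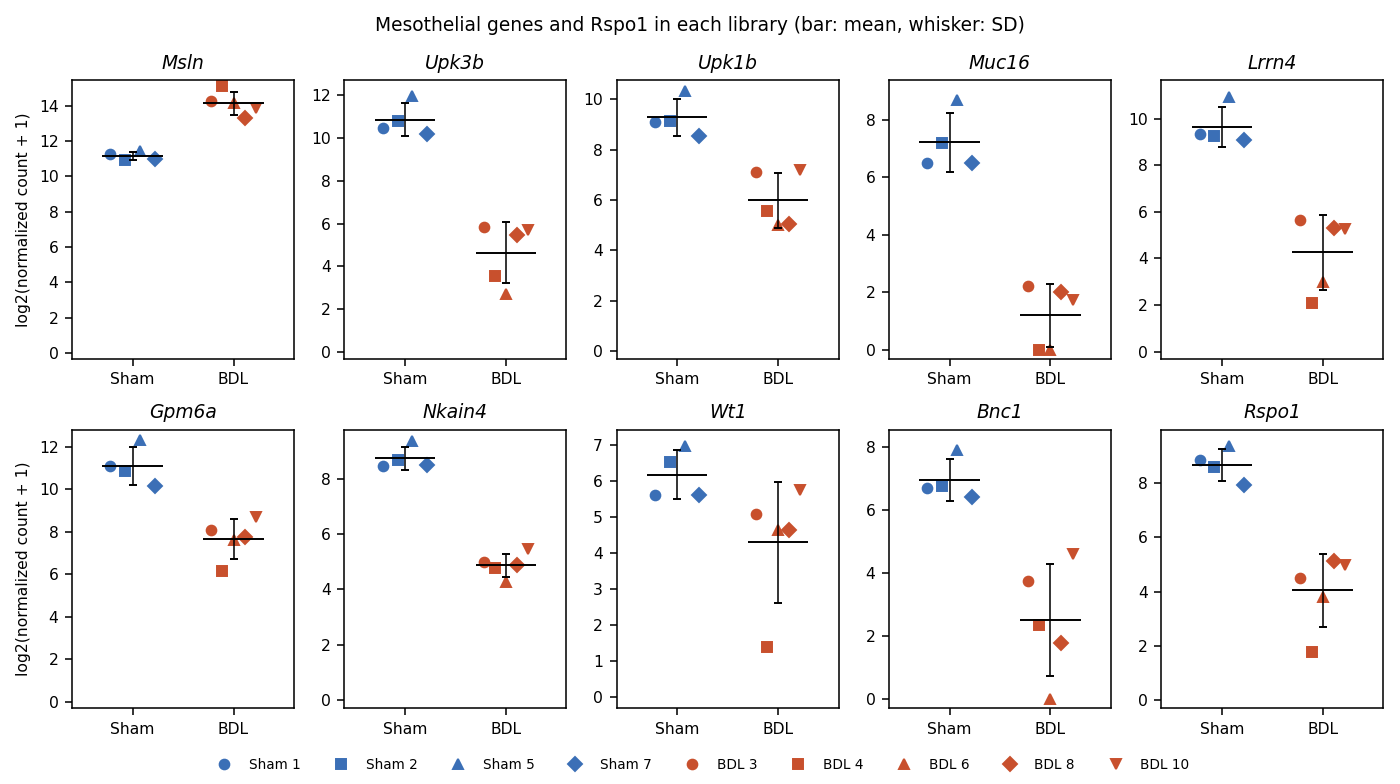
Level of each gene in each library, as log2(normalized count + 1) on the vertical axis, for sham (blue, n = 4) and BDL (orange, n = 5). Points are libraries, bars are group means and whiskers are SD. Sham 5 is the highest sham library in all 10 panels, Msln alone is higher after BDL, and for Wt1 alone the groups overlap.

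Msln and Muc16 encode surface glycoproteins that bind each other, and they moved in opposite directions. Msln, mesothelin, is also made by some carcinomas of the bile duct and pancreas. It was at 2418, 1971, 2753 and 2056 normalized counts in Sham 1, 2, 5 and 7 and at 19280, 35140, 17910, 10140 and 15160 in BDL 3, 4, 6, 8 and 10. Every BDL library was above every sham library, with a log2 fold change of 3.10 (SE 0.35). Muc16, the large mucin known as CA125, was at 88.2, 145.1, 407.6 and 89.9 normalized counts in Sham 1, 2, 5 and 7. It was at 3.65, 0, 0, 3.07 and 2.32 in BDL 3, 4, 6, 8 and 10. The BDL values rest on 13 counts over 5 libraries, beside 533 counts over the 4 sham libraries. Its log2 fold change of -6.47 (SE 0.84) was the lowest of the 10.

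Upk3b and Upk1b encode uroplakins, membrane proteins best known from the urothelium. Upk3b was at 1406, 1801, 3975 and 1178 normalized counts in Sham 1, 2, 5 and 7, and at 56.9, 10.7, 5.48, 43.6 and 50.4 in BDL 3, 4, 6, 8 and 10. The groups were far apart, with a log2 fold change of -5.97 (SE 0.67). Upk1b was at 542.7, 565.9, 1273 and 371.2 in sham and at 138.6, 45.9, 30.8, 31.9 and 144.9 in BDL, in the same order of libraries. Its log2 fold change was nearer 0, at -3.34 (SE 0.55), and in CPM its groups overlapped (lowest sham 6.34, highest BDL 8.11). The other uroplakins were nearly absent. Upk2 and Upk3a had 0 counts in every library, and Upk1a had 6 counts in all sham and 10 in all BDL libraries.

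Lrrn4, Gpm6a and Nkain4 encode membrane proteins that are also found in neurons. Lrrn4, a leucine-rich repeat protein, was at 648.8, 605.8, 1957 and 532.5 normalized counts in Sham 1, 2, 5 and 7. It was at 48.9, 3.28, 6.85, 38.0 and 37.2 in BDL 3, 4, 6, 8 and 10 (log2 fold change -5.11, SE 0.75). As for Rspo1, BDL 4 and BDL 6 were the low BDL libraries. Gpm6a, a proteolipid of the cell membrane, was at 2193, 1873, 5032 and 1150 in sham and at 272.2, 70.4, 192.5, 212.8 and 416.8 in BDL (log2 fold change -3.48, SE 0.54). Its groups overlapped in CPM (lowest sham 19.6, highest BDL 23.3). Nkain4, which interacts with the sodium pump, varied little among BDL libraries. It was at 354.4, 406.3, 658 and 359.6 in sham and at 30.7, 26.2, 18.5, 28.8 and 42.6 in BDL (log2 fold change -3.88, SE 0.30).

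Wt1 and Bnc1 encode zinc finger transcription factors. Wt1 was at 47.9, 90.7, 124.5 and 48.4 normalized counts in Sham 1, 2, 5 and 7, and at 32.8, 1.64, 24.0, 23.9 and 52.7 in BDL 3, 4, 6, 8 and 10. BDL 10 lay above Sham 1 and Sham 7, so the groups overlapped, and the log2 fold change of -1.57 (SE 0.67) was not called. Bnc1, basonuclin 1, was at 103.6, 108.8, 241.2 and 85.3 in sham and at 12.4, 4.10, 0, 2.45 and 23.2 in BDL (log2 fold change -4.35, SE 0.86). Its groups did not overlap.

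**Figure D2:**
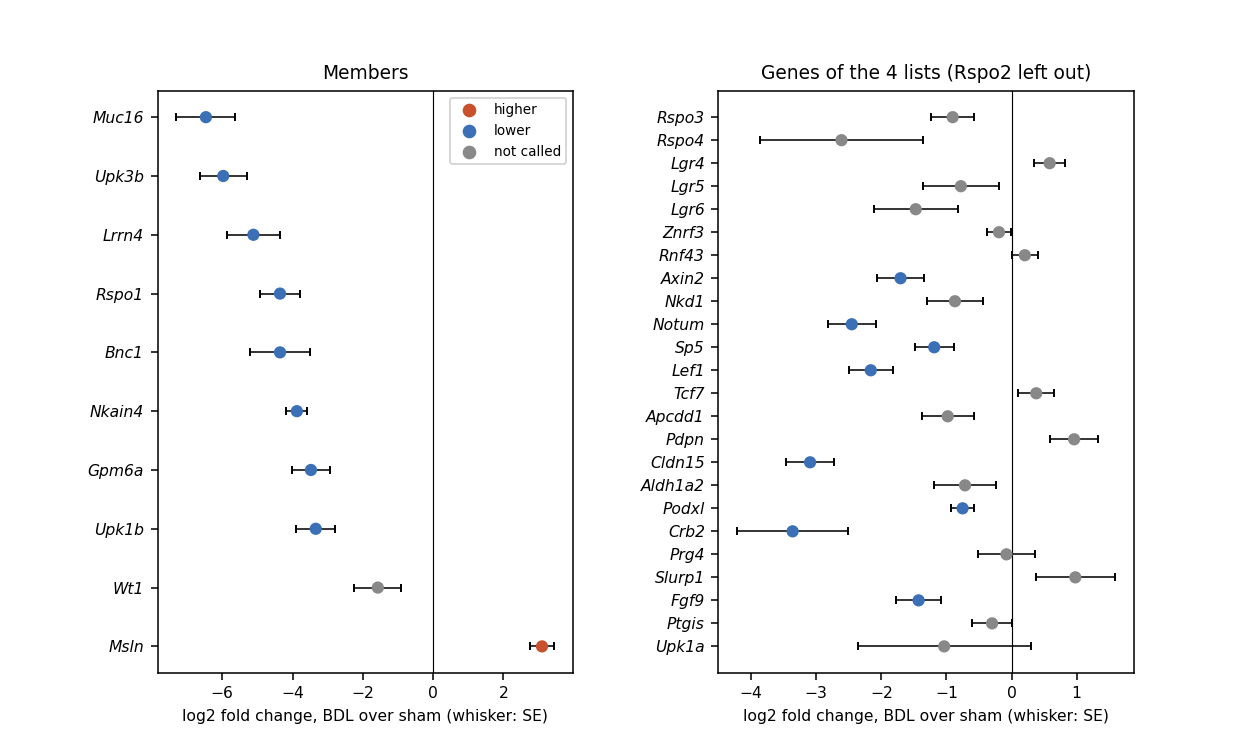
Log2 fold change of BDL over sham (horizontal axis) with its SE (whiskers) for the 10 genes (left) and for the tested genes of the R-spondin, WNT feedback, other mesothelial and uroplakin lists (right). Colours give the edgeR call. Of the 10 genes, 8 lie between -6.47 and -3.34, Wt1 is at -1.57 and Msln at 3.10. Rspo2, with 0 counts in every BDL library, is left out.

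Levels of different genes were compared per kilobase of the canonical transcript. In sham libraries the mean normalized count per kilobase was 912 for Msln, 759 for Gpm6a, 592 for Upk3b and 456 for Nkain4. Rspo1 (198.5) and Upk1b (197) stood in the middle of the order, and Lrrn4 (117), Bnc1 (27.1), Wt1 (23.3) and Muc16 (7.18) below them. After BDL Msln was at 7747 and the next gene, Gpm6a, at 69.0 per kilobase. Rspo1 was then at 9.29, beside 9.46 for Upk3b and 8.08 for Wt1.

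The ratio of Rspo1 to each marker within a library is given as a description, since the genes were chosen on this comparison. Overlap of groups with n = 4 and n = 5 does not show that a ratio was unchanged. Ratios were taken as log2 differences of normalized counts with a pseudocount of 1. Against 7 of the 9 markers the ratio overlapped between sham and BDL libraries. BDL minus sham it was 1.57 for Upk3b, 1.38 for Muc16, 0.76 for Lrrn4, -0.17 for Bnc1, -0.76 for Nkain4, -1.18 for Gpm6a and -1.34 for Upk1b. Upk3b thus lost more than Rspo1 and Upk1b less, within a spread in which libraries of both groups still overlapped. With a pseudocount of 10 the difference was -0.92 for Bnc1, -0.83 for Upk1b, -0.54 for Gpm6a, -0.41 for Nkain4, -0.16 for Muc16 and 0.78 for Lrrn4. The Upk3b ratio, at 1.74, no longer overlapped. The differences for Bnc1 and Muc16 thus depended on the pseudocount. The ratio did not overlap for Wt1 and Msln. Against Wt1 the sham mean was 2.49 ± 0.50 (SD, n = 4) and the BDL mean -0.26 ± 0.64 (SD, n = 5). Against Msln the means were -2.48 ± 0.43 (SD, n = 4) and -10.09 ± 1.97 (SD, n = 5).

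**Figure D3:**
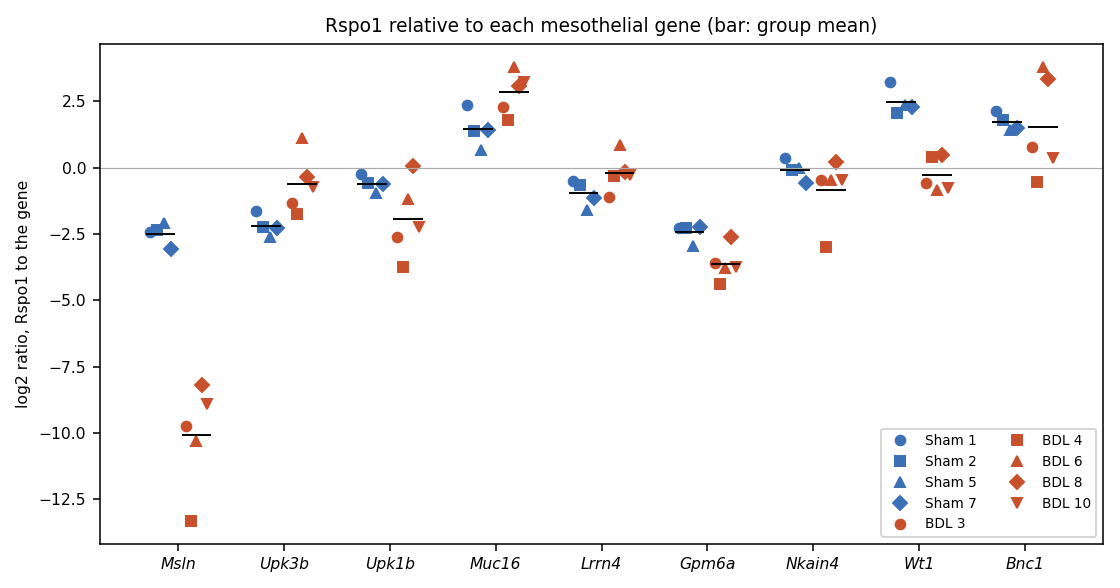
Log2 ratio of Rspo1 to each mesothelial gene (vertical axis) in each library, sham in blue and BDL in orange, with group means as bars. Groups overlap for 7 of the 9 genes. For Msln and Wt1 every BDL library lies below every sham library.

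The highest and lowest libraries of each group were partly shared among the genes. Sham 5 was the highest sham library for all 10 genes, and Sham 7 was the lowest for 6. This was not particular to them. Among the summed markers of other cells given below, Sham 5 was highest for smooth muscle and endothelium, though not for the other lists. Sham 7 was lowest for adipocytes, smooth muscle, fibroblasts, hepatocytes, endothelium and Schwann cells. The share of all genes with these extremes was not taken. Among BDL libraries BDL 10 was the highest for 5 of the 10 genes. BDL 4 was the lowest for Lrrn4, Wt1, Gpm6a and Rspo1 and the highest for Msln, and BDL 6 was the lowest for Upk3b, Upk1b, Bnc1 and Nkain4. Both had 0 counts of Muc16. The summed normalized count of the 8 markers other than Msln was 5385, 5597, 13670 and 3815 in Sham 1, 2, 5 and 7 and 596, 162, 278, 385 and 770 in BDL 3, 4, 6, 8 and 10. In both groups the library lowest in this sum, Sham 7 or BDL 4, was also lowest in Rspo1. The library with the most Rspo1 was Sham 5 in sham, as for the sum, but BDL 8 after BDL, where BDL 10 had the highest sum.

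Because surgery separates the libraries, each library's log2 level was taken as its deviation from its group mean, and the correlation with Rspo1 was read over the 9 deviations as a description. The 9 points share libraries, dissection and depth, and in Rspo1 they rest on as few as 3 counts. Pearson's r was 0.90 for Wt1, 0.89 for Lrrn4, 0.88 for Gpm6a, 0.76 for Muc16 and 0.71 for Upk3b. It was 0.48 for Nkain4, 0.42 for Upk1b and 0.34 for Bnc1. Msln had -0.74. These pooled values hid a difference between the groups. Within sham alone (n = 4) r ran from 0.69 for Wt1 to 0.97 for Gpm6a. Msln was at 0.83, Upk1b at 0.93, Bnc1 at 0.87 and Nkain4 at 0.77. Within BDL alone (n = 5) r ran from -0.92 for Msln to 0.93 for Wt1. Bnc1 was at 0.28, Upk1b at 0.31 and Nkain4 at 0.44. Over all 9 deviations the median of the 9 markers was 0.71. The median of the 13014 genes with a mean of at least 50 normalized counts was -0.10, with a 90th percentile of 0.77. In all, 3 of the 9 markers were in the highest 10% of that order and 6 in the highest 25%. Wt1, whose mean was 49.6, was placed in that order though it missed the minimum. Spearman's rho had a median of 0.68 over the 9.

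BDL 4 weighed on these values. Without it, r fell to 0.56 for Wt1 and moved to -0.17 for Msln. The others were then 0.82 for Lrrn4, 0.81 for Upk3b, 0.80 for Muc16, 0.78 for Nkain4, 0.77 for Gpm6a, 0.61 for Bnc1 and 0.52 for Upk1b. The median was 0.77, with 5 of the 9 in the highest 10% and 8 in the highest 25%. With any 1 library left out, 8 of the 9 had a positive r.

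The correlations also moved when the form of the animal name was used for centring. With deviations taken from the mean of surgery and name form together, a choice made after the data were seen, the median r fell from 0.71 to 0.09. Gpm6a (0.84), Wt1 (0.84), Lrrn4 (0.78) and Muc16 (0.45) kept a positive r, Upk3b, Nkain4 and Upk1b were at 0.09, 0.09 and 0.04, and Bnc1 (-0.34) and Msln (-0.49) were negative. Between the surgeries Rspo1 differed by -5.84 in the 1-digit libraries (2 sham and 2 BDL) and -3.84 in the 4-digit libraries (2 and 3), in mean log2(normalized count + 1), and Wt1 by -3.28 and -0.91. Each such set held only 2 or 3 libraries, and among sham libraries the split by name form is the same as that by sex. Centring on sex was not done, so the lower median cannot be credited to the name form. The within-group correlations thus differed between markers and between the 2 ways of centring.

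**Figure D4:**
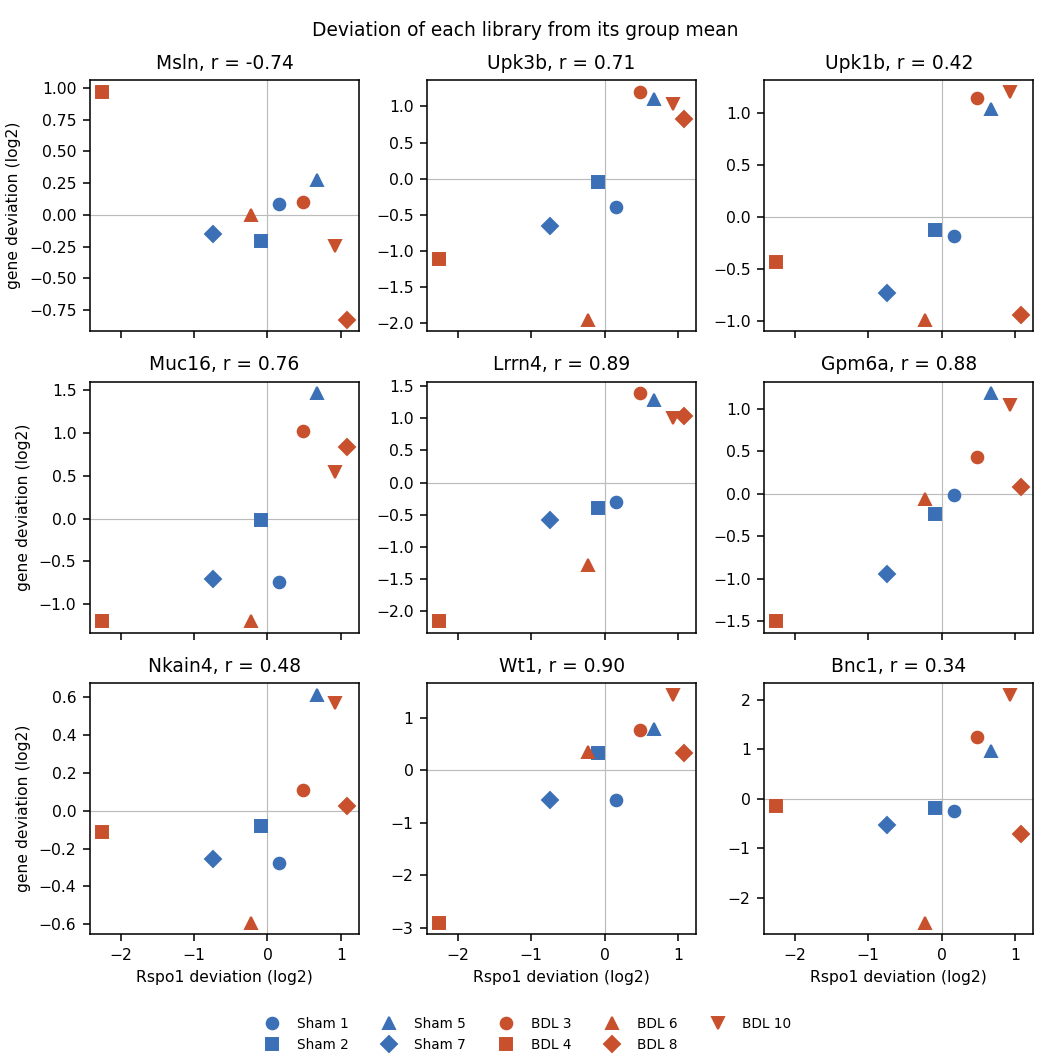
Deviation of each library from its own group mean, for Rspo1 (horizontal axis) and each mesothelial gene (vertical axis), in log2(normalized count + 1), with Pearson's r over the 9 libraries. Sham libraries are blue and BDL libraries orange. BDL 4 (orange square) is the lowest in Rspo1 and stands apart in most panels, and for Msln it is the highest point.

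The genes most like Rspo1 within the surgery groups were not the mesothelial ones. By r over the deviations from the surgery means, not taken again by name form, the 10 highest were Pcolce2 (0.99), Mrc1, Lst1, Cercam, H2-Eb1, H2-Ab1, Dab2, Pld4, H2-Aa and Gypc, all at 0.99 when rounded. Pcolce2 encodes an enhancer of procollagen processing, Mrc1 the mannose receptor of macrophages, and the 3 H2 genes encode class II antigen-presenting molecules. Of the 10, only Pcolce2 and Cercam were still among the 10 highest without BDL 4, and 2 to 6 were when any 1 library was left out. The mesothelial markers were each taken alone and not as a sum, so their r cannot be set directly against those of summed lists. Against the summed markers of other cells, r with Rspo1 was 0.95 for fibroblasts, 0.82 for adipocytes, 0.78 for smooth muscle, 0.73 for Schwann cells, 0.66 for endothelium, 0.54 for acinar cells and -0.84 for cholangiocytes. Without BDL 4 these were 0.79, 0.56, 0.49, 0.34, 0.46, 0.29 and -0.34. It was 0.26 for neutrophils, 0.19 for hepatocytes and -0.46 for enterocytes, and -0.54, 0.03 and -0.01 without BDL 4. The enterocyte sum was mostly Vil1 and, outside BDL 6, the hepatocyte sum was mostly Cyp2e1 and Ttr. BDL 4 had the lowest fibroblast sum (4317 normalized counts) and the highest cholangiocyte sum (176900).

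Many markers of those cells also differed between the surgeries. All 7 acinar markers and 3 of 4 adipocyte markers were lower after BDL, with sums of 777000 to 5473000 against 834 to 92310 and 5076 to 29900 against 340 to 4598 normalized counts. Of the Schwann cell markers 2 of 3 were lower (572 to 999.3 against 54.1 to 296). Of the 5 fibroblast markers Dpt and Pi16 were lower, while Col1a1, Col1a2 and Pdgfra were not called, and the sums overlapped (20640 to 29760 against 4317 to 33940). Of the 5 smooth muscle markers Myh11 alone was lower, and the sums overlapped (6517 to 18150 against 1885 to 11040). The endothelial markers Pecam1 and Kdr were lower and Cdh5 was not called (3525 to 7035 against 2030 to 3440). Of the 4 hepatocyte markers Cyp2e1 and Ttr were lower and Alb and Apoa1 were not called (16750 to 64040 against 2669 to 8801). Sham means were 33030 for Cyp2e1 and 6420 for Ttr, but 154 for Alb and 74.8 for Apoa1. The enterocyte markers Fabp2 and Vil1 were higher, and Alpi was not tested (588.5 to 849 against 1576 to 2775). Vil1 made up most of that sum, at a mean of 736 in sham and 2148 after BDL, beside 1.97 and 34.0 for Fabp2. Which cells these transcripts came from was not tested. All 4 neutrophil markers were higher (122 to 622 against 2015 to 20800). Of 6 cholangiocyte markers Krt19, Krt7 and Cftr were higher and Aqp1 and Sox9 lower (sums 41720 to 58550 against 94950 to 176900). No summed list was at 0 in any library. The part of these shifts in the mesothelial values was not tested. With the log2 acinar level as a further term, chosen after the data were seen, Rspo1 was at -2.91 and no longer called. Its SE was 1.07 with the term and 0.57 without it. The acinar share did not overlap between the groups (3.36% to 9.34% in sham, 0.00474% to 0.477% after BDL). The fit with this term therefore cannot divide a change between surgery and the acinar level. In that fit 1 mesothelial gene, Nkain4, was called lower and Msln higher, and of all tested genes 984 were called higher and 280 lower.

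Of the 8 other genes of the R-spondin axis, Rspo2 was called lower and none was called higher, with a median log2 fold change of -0.84, also with Rspo2 at its bound. Over all tested genes 19.9% were called lower and 21.4% higher. Rspo2 passed the filter on low counts only through the sham libraries, so its call could only have been lower and is no result. It had 12 counts in sham and 0 in BDL libraries, at least 10.4-fold lower against a floor of 3 counts over the BDL group. Without Sham 1, Sham 5 or Sham 7 it had too few counts to be tested, and DESeq2 did not call it. Rspo3, which per kilobase was the highest R-spondin after BDL, was at 284.2, 190.4, 332.9 and 168.3 normalized counts in Sham 1, 2, 5 and 7. It was at 140.8, 59.0, 109.6, 118.4 and 218.5 in BDL 3, 4, 6, 8 and 10. The groups overlapped, with a log2 fold change of -0.90 (SE 0.33, adjusted p = 0.0545, edgeR). It was called under 8 alternatives, among them DESeq2 (adjusted p = 0.0186) and edgeR without Sham 2 (0.0360) or BDL 10 (0.0311), and scaled by library totals alone it was at -0.07. Per kilobase, Rspo1 stood at 198.5 and Rspo3 at 57.7 in sham, and at 9.29 and 30.6 after BDL. The receptor genes Lgr4 (0.59, adjusted p = 0.0740), Lgr5 (-0.78, 0.315) and Lgr6 (-1.47, 0.0946) and the ligase genes Znrf3 (-0.19, 0.446) and Rnf43 (0.20, 0.438) were not called by edgeR, with log2 fold changes and adjusted p in parentheses. Nor was Rspo4 (-2.61, adjusted p = 0.123, edgeR), at no more than 11.5 normalized counts. Without BDL 6, Lgr4 was called higher (0.72, adjusted p = 0.00987, edgeR).

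Feedback genes of canonical WNT signalling, chosen with earlier results of these data known, gave 4 lower, 0 higher and 3 not called of 7. Over all tested genes 41.4% were called, 19.9% lower and 21.4% higher. The median log2 fold change was -1.19, beside -0.03 over all tested genes. Axin2, a scaffold of the complex that destroys β-catenin, was at 39.9 to 119.3 normalized counts in sham mice and 16.8 to 31.0 after BDL. Its log2 fold change was -1.70 (SE 0.36, adjusted p = 0.00460, edgeR). Notum, which inactivates WNT ligands by removing their lipid, had a log2 fold change of -2.45 (SE 0.37, adjusted p = 0.000692, edgeR), Lef1 of -2.16 (SE 0.34, adjusted p = 0.000826) and Sp5 of -1.19 (SE 0.30, adjusted p = 0.0101). Lef1 and Sp5 encode transcription factors. In all 4 the groups did not overlap. Nkd1 (-0.87, adjusted p = 0.140), Apcdd1 (-0.98, 0.0770) and Tcf7 (0.38, 0.298) were not called by edgeR, though Apcdd1 was without BDL 4 (-0.72, adjusted p = 0.0164). Scaled by library totals alone, Axin2 (-0.83) and Sp5 (-0.34) were no longer called, and Notum (-1.51) and Lef1 (-1.32) were. With the acinar term, whose values did not overlap between the groups, none of the 4 was.

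The 10 other genes of mesothelium, some shared with further cells, were less uniform. Of the 9 tested 4 were called lower and none higher, so the share called was near the 41.4% of all tested genes, of which 19.9% were lower. The median log2 fold change was -0.71, beside -0.03 over all tested genes. Cldn15, a tight junction claudin, was at 333.0, 446.2, 1014 and 302.0 normalized counts in Sham 1, 2, 5 and 7 and at 54.0, 44.2, 71.2, 52.8 and 72.1 in BDL 3, 4, 6, 8 and 10. As for the listed markers, Sham 5 was the highest sham library. The groups were apart for Cldn15 (log2 fold change -3.09, SE 0.37, adjusted p = 0.000201, edgeR). Crb2, a polarity gene, was at -3.36 (SE 0.85, adjusted p = 0.0106, edgeR), the growth factor gene Fgf9 at -1.43 (SE 0.34, adjusted p = 0.00830) and Podxl, a sialomucin also found in endothelium, at -0.75 (SE 0.17, adjusted p = 0.00698). Scaled by library totals alone, Podxl turned to 0.18 and Fgf9 (-0.47) was not called, while Cldn15 and Crb2 were. Pdpn, podoplanin (0.96, adjusted p = 0.0619), Aldh1a2, a retinoic acid synthesis enzyme (-0.71, 0.265), Prg4 (-0.08, 0.905), Slurp1 (0.98, 0.229) and Ptgis, prostacyclin synthase (-0.30, 0.476), were not called by edgeR. Pdpn was called higher without Sham 5 (1.29, adjusted p = 0.0302, edgeR) or without BDL 4 (1.20, adjusted p = 0.00319), Crb2 was at -4.07 without Sham 2, and Cldn15 was at -2.50 without Sham 5. Calb2, calretinin, had 0 counts in every library.

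No difference between the sexes was called for the 10 genes. Between males and females edgeR called 0.0188% of the tested genes (4 of 21299, 482 at an unadjusted p under 0.05, and 18 with DESeq2), none of them among the 10. The interaction of sex and surgery called 0 genes (544 at an unadjusted p under 0.05, and 5 with DESeq2). Of the 10 genes, Upk1b and Bnc1 were among those under 0.05 before adjustment. Rspo1 differed between BDL and sham by -5.07 in females (2 sham and 3 BDL) and -3.97 in males (2 and 2) in mean log2(normalized count + 1). Msln differed by 2.96 in females and 2.97 in males. The other markers were further from 0 in females, at -5.80 against -2.57 for Bnc1, -6.55 against -3.85 for Lrrn4, -7.18 against -4.87 for Upk3b and -4.23 against -1.96 for Upk1b. For Wt1 the differences were -2.74 and -0.65, for Muc16 -6.92 and -4.86, for Gpm6a -4.07 and -2.59 and for Nkain4 -4.28 and -3.36. The 1-digit animals are all female, so sex and the form of the name cannot be fully told apart. All 10 genes had the same direction in both sexes.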

How the data were processed

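Whole EHBDs from 4 sham and 5 BDL mice were measured by bulk RNA-Seq. The authors made libraries with the SMART-Seq mRNA kit, counted reads with Salmon on GRCm39 and summarized to genes. The deposited values are estimated counts per gene, written as whole numbers with no normalization. Transcript length offsets were not used here. Strand use in counting is not given in the sources used here, and each of the 10 genes overlaps at least 1 other annotated gene, so reads of a gene and an overlapping partner may not be told apart.

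Genes with at least 10 counts in all were fitted in R 4.3.3 with edgeR 4.0.16 (quasi-likelihood F test, TMM, sex and surgery as terms, Benjamini-Hochberg over 21299 genes, called at an adjusted p under 0.05). The sexes come from the deposited sheet. SE is the log2 fold change over the root of F. Normalized counts use size factors of DESeq2 1.42.0. The edgeR test was run on simulated counts with the same spread for every gene. Few genes were changed there, all with a mean of at least 50 normalized counts. That setting differs from these data, so it does not check genes with few counts. Gene symbols for 55261 of 55822 IDs, spans and promoters come from Gencode vM39. No 2 libraries held identical values.

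The members and lists were chosen with earlier results of these data known. All 10 members, every list gene, the 10 genes most like Rspo1 within groups, the called markers of other cells and Mki67 may be named. Alternatives were DESeq2, other scalings and filters, no sex term, each library left out and, chosen after seeing the data, 6 others. The 1 library per mouse sets the precision.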

Additional observations from a re-analysis of the deposited data

Results flagged for a closer look

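Groups of 4 or 5 libraries were searched for a library far from the others by Dixon's criterion at 95%. Of the 96 groups, those at 0 in every library could not be judged (Calb2, Upk2 and Upk3a, and Rspo2 after BDL). A far library was found in 4, and chance alone marks about 1 group in 20. Sham 5 was the highest sham library for 3 of the mesothelial genes by such a gap. Lrrn4 was at 1957 normalized counts there, with the next sham library at 648.8, Bnc1 was at 241.2 with the next at 108.8, and Nkain4 was at 658 with the next at 406.3. The summed cholangiocyte markers were at 176900 normalized counts in BDL 4, with the next BDL library at 112900.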

How the results depend on the processing

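No paired analysis was made, because the sources used here do not record which sham and BDL mice belong together. The study matched mice by age and sex, with littermates as controls where it could. The log2 fold change of Rspo1 ranged from -4.77 to -2.91 over 21 alternatives (-4.77 to -3.89 with 1 library left out). Rspo1 was no longer called once the acinar level, which did not overlap between the groups, was added as a term (-2.91). Calls of the 10 genes support nothing, since they come from the comparison on which the genes were chosen. The name form in place of sex or for centring, library totals alone, the acinar term, the fit without Sham 7 and BDL 4, and the fit with only Sham 1 and Sham 5 were chosen after seeing the data.

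With the acinar term, 984 genes were called higher and 280 lower, with 1 mesothelial gene lower, and 0 lower in the R-spondin, WNT feedback and other mesothelial lists. By library totals, 8150 genes were called higher and 1145 lower, with 2 R-spondin genes, 1 WNT feedback gene and 2 other mesothelial genes higher, and 2 WNT feedback and 2 other mesothelial genes lower, 1 gene for the interaction of sex and surgery and 8 for sex. R-spondin genes called lower numbered 2 with DESeq2, RLE scaling, upper-quartile scaling or no filter, 0 without Sham 7 and BDL 4, and from 0 to 2 with 1 library left out (0 without Sham 1, 5 or 7). Those called higher numbered 1 with no filter and 0 to 1 with 1 library left out. Other mesothelial genes called higher numbered 1 with DESeq2, with no filter and without Sham 7 and BDL 4, and 0 to 1 with 1 library left out. The interaction called 5 genes with DESeq2 and 1 with no filter, and sex called 18 and 7.

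Direction turned for Prg4 (-0.35 to 0.27 with 1 library left out, 0.12 without BDL 4, 0.44 with the acinar term, 0.76 by totals), Ptgis (-0.44 to 0.015 with 1 library left out, 0.54 with the acinar term, 0.57 by totals) and Upk1a (-1.73 to 0.25 with 1 library left out, 0.92 with only Sham 1 and Sham 5, 0.13 by totals). With the acinar term it turned for Rnf43 (-0.11), Apcdd1 (0.017) and Aldh1a2 (0.22), and by totals for Aldh1a2 (0.17), Lgr5 (0.026), Znrf3 (0.71) and Podxl (0.18). Upper-quartile scaling moved the median log2 fold change of all genes by -0.15. The median r of the 9 markers with Rspo1 was 0.67 to 0.81 with 1 library left out and 0.092 when centred on surgery and name form. The cause of these changes was not tested. Depth limits Muc16, Bnc1 and Rspo1 after BDL, where single libraries hold few or 0 counts.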
